A study of Oryza sativa with 6 samples.

Results

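The 6 genes described here are beta-expansin genes of rice (Oryza sativa), the loci listed as EXPB2 to EXPB7, measured by RNA sequencing in root tips of the wild type J10 and of a mutant named lad or, in the labels, also sr1. They were chosen by locus identifier, and all 6 were found among the 56962 genes of the deposited count table. All 6 also passed the filter on low counts, which left 22624 genes for testing. Each genotype had 3 libraries, made from the last 0.5 cm of the roots of seedlings grown at 25°C and taken 6 days after sprouting. The labels name no other treatment, do not say which gene is mutated in lad or how the mutant was made, and do not say how many seedlings went into a library or whether the libraries came from separate cultures. The p-values therefore measure the spread between these libraries, which may be in part technical. The series title ties a gene named SHORT-ROOT 1 to cell division and to tracheary elements, the xylem cells that carry water, and the comparison of mutant with wild type asks which transcripts differ between these tips.

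Expansins are secreted proteins that loosen plant cell walls without cutting their polymers. They act best in an acidic wall, where they let cellulose and matrix polysaccharides slip past each other so that a cell under turgor can extend. The family has alpha and beta branches, and the beta branch is expanded in grasses, whose primary walls are rich in arabinoxylan and poor in xyloglucan and pectin. The group 1 allergens of grass pollen are beta-expansins. In a root tip, wall loosening accompanies the extension of cells leaving the meristem.

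The count table gives these loci no description and no name. The names used here follow the order of the locus list, EXPB2 to EXPB7. The RefSeq gene table for rice (assembly ASM3414082v1), which shares no identifier with these loci, places EXPB6, EXPB2, EXPB3 and EXPB4 next to each other on chromosome 10 in that order, EXPB5 on chromosome 4 and EXPB7 on chromosome 3, and the loci of the list lie on the same chromosomes in the same order. EXPB6 (LOC_Os10g40700), EXPB2 (LOC_Os10g40710), EXPB3 (LOC_Os10g40720) and EXPB4 (LOC_Os10g40730) stand within 31157 bases of chromosome 10, from 21830151 to 21861307, in the coordinates of the deposited table, whose genome build no source used here gives. The gaps between them are 4235, 10152 and 9023 bases, with no other listed gene inside. EXPB6, EXPB2 and EXPB3 are on the minus strand and EXPB4 is on the plus strand. EXPB5 (LOC_Os04g46650) lies on chromosome 4 from 27655666 to 27657079 and EXPB7 (LOC_Os03g01270) on chromosome 3 from 189333 to 191297, both on the plus strand. None of the 6 overlaps another listed gene in these coordinates (0 overlapping genes for each). Whether reads from transcripts that run past the listed ends of nearby genes entered their counts was not checked. The loci are members of 1 family, and how reads shared by near-identical copies were counted is not given, so values of such copies are uncertain to that extent.

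Library totals ran from 16405022 to 20693114 counts, of which the 6 genes held 7826 to 12376. Libraries of the same genotype had Spearman correlations over genes of 0.982 to 0.991, and libraries of different genotypes of 0.885 to 0.925. Replicates were further apart than sampling of reads allows (chi-square of 9.03 or more per degree of freedom), so each was kept as a separate sample. Of the tested genes, 45.2% were called, meaning that the p-value of edgeR's quasi-likelihood test, adjusted over all of them by Benjamini-Hochberg, was below 0.05: 20.3% as lower and 24.9% as higher in the mutant. As a check on other tissue, 37 genes described as photosynthetic were matched, of which 17 had no count in any library. Their summed level was 22.8 to 24.5 CPM (counts scaled to library size with the TMM factors of edgeR) in the wild type and 23.5 to 30.7 CPM in the mutant. Of the 6 of them that were tested, 0 were called by edgeR, by DESeq2 or by limma-voom, and 1 was higher at an unadjusted p below 0.05 in edgeR. No list of genes that mark a root cell type was drawn up, so the tip itself was not checked in that way.

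In the mutant tips EXPB2, EXPB3, EXPB4 and EXPB7 fell, by 1.32-fold to 1.63-fold, and EXPB5 and EXPB6 did not pass the test. None rose, with 0 higher in edgeR, DESeq2 or limma-voom and 0 higher at an unadjusted p below 0.05. The 4 lower genes of 6 compare with 20.3% of all tested genes called lower, and with 24.7% of the 16312 tested genes that averaged at least 5 CPM. The median log2 change of the 6 was -0.46, against 0.019 over all tested genes. In RNA from whole tips, fewer cells that express a gene and less of its RNA per cell cannot be told apart. Among the 4 calls, that for EXPB3 held with every library left out in turn, and the other 3 did not.

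**Figure D1:**
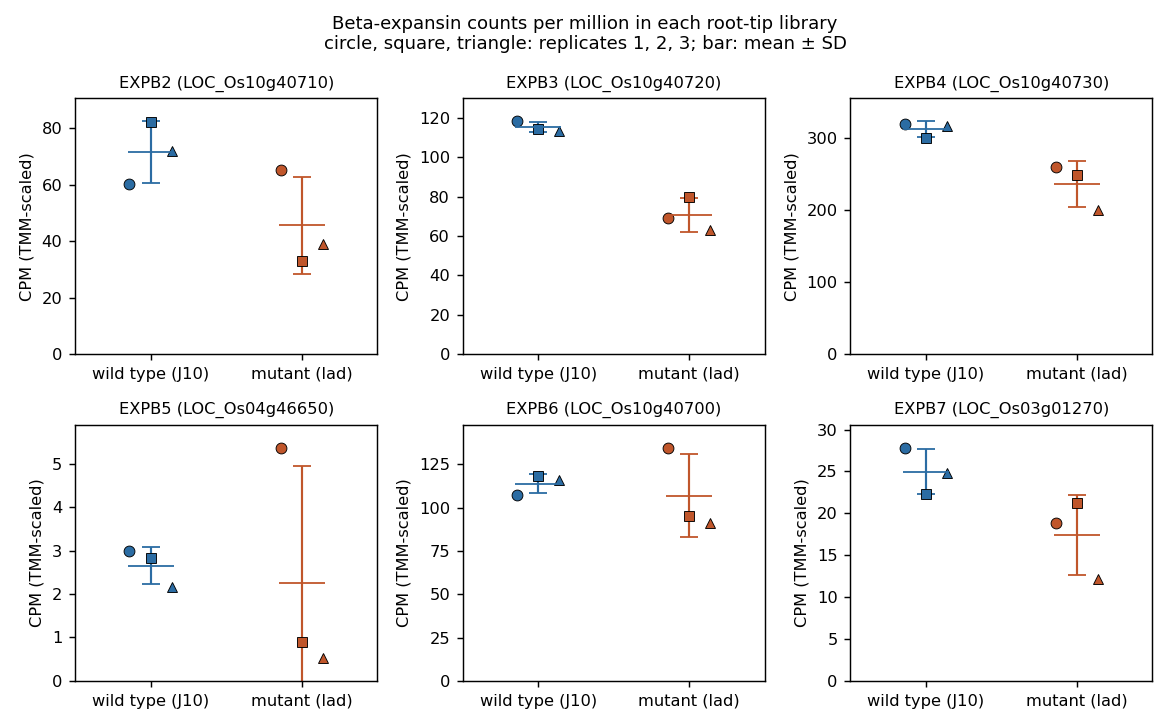
TMM-scaled CPM (linear axes from 0) of each of the 6 genes in each library, with wild type J10 in blue, mutant lad in orange and the mean ± SD of 3 libraries as a bar, cut at 0 for EXPB5 in the mutant. On this scale EXPB3, EXPB4 and EXPB7 do not overlap between genotypes (as TPM, EXPB4 and EXPB7 do), and for EXPB2, EXPB5 and EXPB6 mutant replicate 1 (circle) lies above the other mutant libraries.

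EXPB3 showed the clearest difference. Its level was 118, 114 and 113 CPM in wild type replicates 1, 2 and 3 and 69.3, 79.7 and 62.9 CPM in mutant replicates 1, 2 and 3. Every mutant library lay below every wild type library, on this scale and with every other scaling tried. The gap was narrowest as TPM, with a lowest wild type value of 107 and a highest mutant value of 89.8. The wild type coefficient of variation depended on the scaling, at 2.20% with TMM factors, 6.37% with library totals and 9.38% as TPM. The wild type mean was 115 ± 2.53 CPM and the mutant mean 70.6 ± 8.50 CPM (SD, n = 3 libraries per genotype), a log2 change of -0.71 ± 0.11 (SE) or 1.63-fold (adjusted p = 0.00051, edgeR quasi-likelihood, Benjamini-Hochberg). With 1 library left out the log2 change lay between -0.80 and -0.63 and the adjusted p between 0.00036 and 0.0042.

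EXPB4, the most abundant of the 6, fell less. It measured 320, 300 and 317 CPM in the wild type libraries and 260, 249 and 200 CPM in the mutant libraries. The genotypes did not overlap, as for 56.8% of all tested genes in either direction (26.6% with the mutant below and 30.2% with it above), and mutant replicate 3 was the lowest. As TPM they overlapped, with 284, 229 and 261 in the wild type and 245, 229 and 185 in the mutant. The mean went from 312 ± 10.6 to 236 ± 31.7 CPM, a log2 change of -0.40 ± 0.12 or 1.32-fold (adjusted p = 0.021, edgeR). The call was lost without wild type replicate 3 (adjusted p = 0.077, edgeR) and without mutant replicate 3 (0.078), and also when libraries were scaled by their totals (0.064).

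EXPB2 differed between the mutant libraries themselves. It stood at 60.3, 82.0 and 72.0 CPM in the wild type and at 65.1, 32.9 and 38.8 CPM in the mutant. Mutant replicate 1 lay inside the wild type range, whereas replicates 2 and 3 lay below it, so the genotypes overlapped. The mean was 71.4 ± 10.9 CPM in the wild type and 45.6 ± 17.2 CPM in the mutant, a log2 change of -0.65 ± 0.22 (adjusted p = 0.036, edgeR). Without mutant replicate 1 the log2 change was -0.99 (adjusted p = 0.0016), and leaving out replicate 2 or 3 of either genotype ended the call (adjusted p from 0.078 to 0.13, edgeR), as did library totals (0.072).

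EXPB7, the member on chromosome 3, was called at the threshold itself. Its values were 27.8, 22.3 and 24.8 CPM in the wild type and 18.9, 21.2 and 12.1 CPM in the mutant. The genotypes did not overlap, but the highest mutant library, replicate 2, came close to the lowest wild type library, also replicate 2. They overlapped when libraries were scaled by their totals (wild type from 20.6 CPM, mutant up to 21.8 CPM) and as TPM (from 19.7 and up to 22.6). TPM divides counts by gene length, which is the same in every library, and scales each library by its sum of such values, without TMM factors. The means were 25.0 ± 2.72 and 17.4 ± 4.73 CPM, a log2 change of -0.52 ± 0.20 (adjusted p = 0.0499, edgeR). Leaving out replicate 1 or 3 of either genotype ended the call (adjusted p from 0.079 to 0.13, edgeR), as did library totals (0.12) and a filter of 1 CPM in 3 libraries (0.053). Without mutant replicate 3 its log2 change was -0.32.

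EXPB6, the first gene of the chromosome 10 group, did not pass the test. It measured 108, 118 and 116 CPM in the wild type and 134, 95.3 and 90.9 CPM in the mutant. Mutant replicate 1 was above every wild type library and replicates 2 and 3 were below all of them. The means were 114 ± 5.62 and 107 ± 23.9 CPM, and the log2 change of -0.09 ± 0.15 had a 95% interval from -0.42 to 0.23 (adjusted p = 0.63, edgeR), which leaves room for a decrease as large as that of EXPB4. Without mutant replicate 1 the log2 change was -0.29 (adjusted p = 0.079), without mutant replicate 3 it was 0.012, and with library totals it was 0.0011.

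EXPB5, the scarce member on chromosome 4, had the widest spread. Its counts were 58, 54 and 40 in the wild type and 99, 15 and 10 in the mutant, or 2.98, 2.82 and 2.16 CPM against 5.36, 0.892 and 0.518 CPM. Mutant replicate 1 was above all wild type libraries, at 5.36 CPM with an exact Poisson 95% interval from 4.35 to 6.52, and mutant replicates 2 and 3 were below all of them, with intervals from 0.499 to 1.47 and from 0.248 to 0.953. These intervals cover counting error only. With all libraries the log2 change was -0.23 ± 0.67, with a 95% interval from -1.72 to 1.26 (adjusted p = 0.80, edgeR). Without mutant replicate 1 it was -1.92 (adjusted p = 0.011), and without mutant replicate 2 or 3 it was 0.14 or 0.24, so that its size and direction turned on which mutant library was left out.

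**Figure D2:**
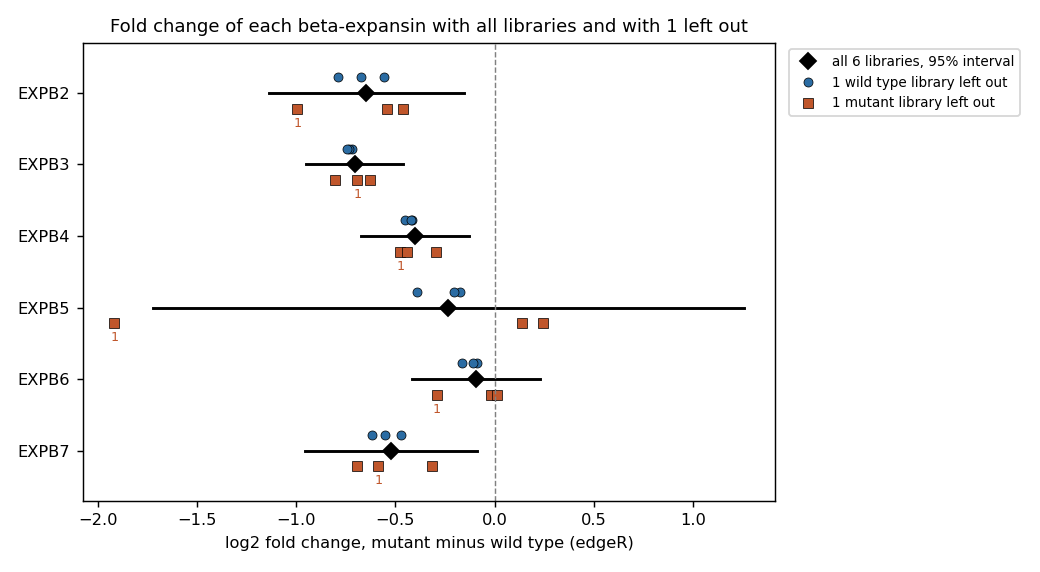
Log2 fold change, mutant minus wild type, of each gene from edgeR with all 6 libraries (black diamond, line for the 95% interval) and with 1 wild type (blue) or 1 mutant library (orange) left out, with a 1 marking the fit without mutant replicate 1. EXPB3 stays between -0.80 and -0.63, while EXPB5 runs from -1.92 to 0.24.

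With TMM factors the 6 genes varied more between mutant libraries than between wild type libraries. The coefficient of variation was larger in the mutant for 6 of 6 genes, against 46.4% of all tested genes. It was so for all 5 members that averaged at least 5 CPM, which leaves out EXPB5, against 47.5% of tested genes at that level. In the mutant it was 12.0% for EXPB3, 13.4% for EXPB4, 22.3% for EXPB6, 27.1% for EXPB7, 37.7% for EXPB2 and 119% for EXPB5, beside a median of 10.8% over genes of at least 5 CPM. The wild type values ran from 2.20% for EXPB3 to 16.4% for EXPB5, beside a median of 11.1%. As TPM the coefficient stayed larger in the mutant for each of the 6 genes, but by less for some. It was 9.38% in the wild type and 11.6% in the mutant for EXPB3, 10.6% and 14.2% for EXPB4, and 18.3% and 27.1% for EXPB7. All 6 genes were measured in the same libraries, so they are not separate results. Mutant replicate 1 did not stand apart across the transcriptome, since its Spearman correlations with the other mutant libraries were 0.985 and 0.987, and 0.983 was found between those 2. Of all tested genes, 18 (0.0796%) were over 5-fold higher in mutant replicate 1 than in both other mutant libraries, and EXPB5 was 1 of them. Which cells or seedlings mutant replicate 1 held more or less of was not tested.

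Per kilobase of gene length, the scale on which levels of different genes can be compared, the wild type order was EXPB4, EXPB6, EXPB3, EXPB2, EXPB7 and EXPB5. The levels were 191 ± 6.50 CPM per kilobase for EXPB4, 89.8 ± 4.43 for EXPB6, 86.0 ± 1.89 for EXPB3, 56.6 ± 8.63 for EXPB2, 17.6 ± 1.92 for EXPB7 and 2.33 ± 0.383 for EXPB5. EXPB6 and EXPB3 overlapped between libraries and held no firm order, and the other neighbours in this order did not overlap. In the mutant the levels were 144 ± 19.4 CPM per kilobase for EXPB4, 84.2 ± 18.8 for EXPB6, 52.8 ± 6.34 for EXPB3, 36.1 ± 13.6 for EXPB2, 12.3 ± 3.33 for EXPB7 and 1.98 ± 2.36 for EXPB5. There EXPB6 and EXPB3 no longer overlapped (71.7 to 106 against 47.0 to 59.5 CPM per kilobase), whereas EXPB3 and EXPB2 did. EXPB4 ranked 634 among all genes of the table by wild type level per kilobase and 752 by mutant level.

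The chromosome 10 group made up nearly all of the counts of the 6 genes. Its 4 members summed to 606, 614 and 618 CPM in the wild type and to 528, 457 and 393 CPM in the mutant. The 6 together summed to 636, 639 and 645 CPM in the wild type and to 553, 479 and 405 CPM in the mutant. With TMM factors the wild type sums were nearly equal, and each mutant sum was lower and differed from the others. As TPM the wild type sums were further apart, and the genotypes overlapped, with mutant replicate 1 above wild type replicate 2 in both sums. In mutant replicate 1 EXPB4 stood at 245 TPM and EXPB6 at 164, against 229 and 117 in wild type replicate 2. EXPB5 and EXPB7 were also higher there, while EXPB2 (79.9 against 81.4) and EXPB3 (80.1 against 107) were lower. The separation of the sums thus depended on the scaling. By level per kilobase EXPB4 held 43.0 ± 1.71% of the sum in the wild type and 43.7 ± 2.59% in the mutant. The share of EXPB6 was 20.3 ± 0.825% in the wild type, with a highest value of 20.9%, and 25.3 ± 2.29% in the mutant, with a lowest value of 22.9%. The share of EXPB3 was 19.4 ± 0.613% in the wild type, with a lowest value of 19.0%, and 16.1 ± 2.42% in the mutant, with a highest value of 18.1%.

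Whether the genes moved unequally was tested on ratios within a library, which do not depend on how libraries are scaled. Over all 15 pairs of the 6 genes the smallest p that 3 libraries against 3 allow is 0.10, and 0.50 was the smallest after Benjamini-Hochberg adjustment over the pairs (two-sided exact permutation test), so no difference between genes could pass. The log2 ratio of EXPB3 to EXPB6 was 0.14, -0.050 and -0.033 in the wild type libraries and -0.95, -0.26 and -0.53 in the mutant libraries. The ratio was lower in every mutant library, with means of 0.017 ± 0.10 and -0.58 ± 0.35 (n = 3, exact permutation p = 0.10). The log2 ratio of EXPB2 to EXPB6 had means of -0.68 ± 0.15 in the wild type and -1.27 ± 0.25 in the mutant, also with no overlap (exact permutation p = 0.10). The log2 ratio of EXPB3 to EXPB4 had means of -1.44 ± 0.043 and -1.74 ± 0.14, the third pair of the 15 with no overlap (exact permutation p = 0.10). Each of these pairs holds EXPB3 or EXPB6, so they are not separate results. How often ratios of other gene pairs do not overlap was not computed. EXPB2 and EXPB3 had nearly the same mean log2 ratio to each other in the wild type and the mutant, -0.70 ± 0.25 and -0.69 ± 0.59, with a wide spread.

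**Figure D3:**
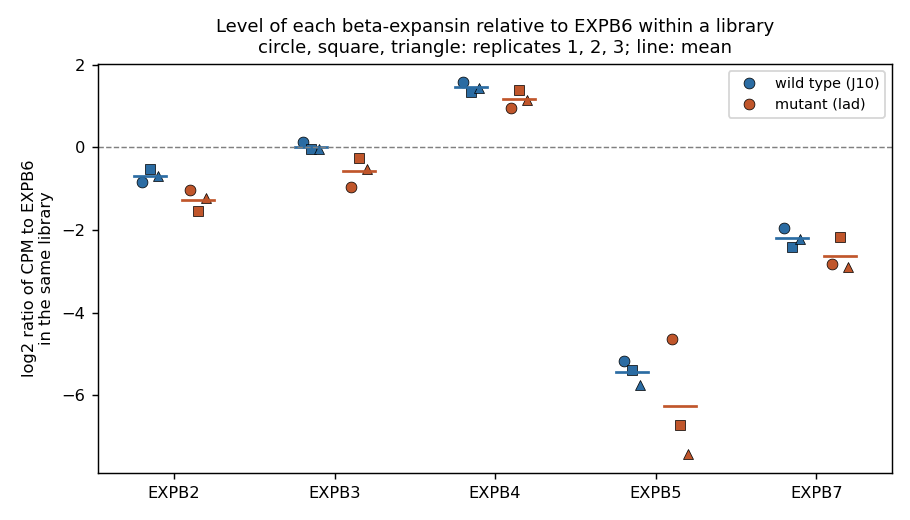
Log2 ratio of the CPM of each of the other 5 genes to that of EXPB6 in the same library, with wild type J10 in blue, mutant lad in orange and a line at the mean of 3 libraries. EXPB2 and EXPB3 lie lower relative to EXPB6 in all 3 mutant libraries, and the other 3 genes overlap between genotypes.

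Over the 6 libraries, which share depth and the split by genotype, EXPB4 followed EXPB7 most closely (Pearson r = 0.95 of log2 CPM), then EXPB3 (0.93), and EXPB5 followed EXPB6 (0.94). EXPB3 and EXPB6, the pair that differed most in course, had r = 0.28. Of the adjacent pairs on chromosome 10, EXPB3 and EXPB4 had r = 0.93, EXPB6 and EXPB2 had 0.82 and EXPB2 and EXPB3 had 0.64. These values describe 6 points, and high values are common: 2321 of 16307 other genes averaging at least 5 CPM had r of 0.9 or more with EXPB3, 782 with EXPB4, 252 with EXPB7, 195 with EXPB2, 37 with EXPB5 and 30 with EXPB6. For EXPB3 the most similar were LOC_Os02g51280 (r = 0.999), which fell from 33.3 ± 0.813 to 9.15 ± 2.62 CPM, and LOC_Os05g39990 (0.999), which fell from 47.4 ± 1.69 to 25.5 ± 3.72 CPM, and neither carries a description. For EXPB4 they were LOC_Os04g57739 (0.997), without a description, and the protein kinase domain gene LOC_Os08g32600 (0.997). For EXPB2 they were LOC_Os02g44360 (0.993), without a description, and LOC_Os05g31750 (0.990), described by an annexin repeat, a domain that binds membranes in the presence of calcium. For EXPB7 they were the protein kinase domain gene LOC_Os11g08950 (0.997) and LOC_Os08g06420 (0.993), without a description. For EXPB5 they were LOC_Os09g30130 (0.985), described as cellulose synthase, and LOC_Os09g01360 (0.982), with a WD40 repeat. For EXPB6 they were LOC_Os06g42754 (0.970), without a description, and LOC_Os03g51220 (0.962), with a homeobox-like domain.

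Of 91 other genes listed within 100 kb of a member, 58 were tested, of which 9 were higher and 15 lower in the mutant, with a median log2 change of 0.018. Over all tested genes 24.9% were higher and 20.3% lower, and the difference of the neighbours from these shares was not tested. Around the chromosome 10 group, 3 of 17 tested genes were higher and 3 lower. The nearest tested gene there, LOC_Os10g40740 with a basic helix-loop-helix domain, lies 1701 bases past EXPB4 and measured 1.18 ± 0.111 CPM in the wild type and 1.22 ± 0.72 CPM in the mutant, which edgeR did not call (adjusted p = 0.95). Around EXPB7, 5 of 23 were higher and 5 lower, and around EXPB5 1 of 18 was higher and 7 lower. The nearest tested genes there were both lower in the mutant. The one 2405 bases before EXPB7, which has neither a locus name nor a description, fell from 10.4 ± 0.554 to 6.19 ± 0.896 CPM (adjusted p = 0.0071, edgeR), and LOC_Os04g46660, a gene with a cyclin PHO80-like domain 4470 bases past EXPB5, fell from 66.0 ± 7.65 to 44.2 ± 4.15 CPM (adjusted p = 0.0029, edgeR).

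Among the EXPB names of RefSeq, EXPB8 comes before EXPB7 and EXPB10 after it, EXPB15 comes before EXPB5, and EXPB9 before EXPB6. This order passes over all genes without such a name, so it does not make them adjacent genes. Nothing in the sources used here pairs these names with loci of the count table. The following neighbours were chosen after their values were seen. LOC_Os03g01260, without a description, lies 9127 bases before EXPB7 and measured 191, 243 and 225 CPM in the wild type and 176, 181 and 150 CPM in the mutant. Its genotypes did not overlap, and it fell by 0.38 ± 0.13 on the log2 scale (adjusted p = 0.031, edgeR), a call lost without wild type replicate 2 or 3 or mutant replicate 1 or 3 (adjusted p from 0.066 to 0.12) and with library totals (0.065). LOC_Os04g46630, without a description, lies 8149 bases before EXPB5 and had 9, 16 and 0 counts in the wild type and 71, 0 and 41 in the mutant. Both genotypes held a library without counts, and the gene did not pass the test with all libraries (adjusted p = 0.14, edgeR). Without mutant replicate 2 its log2 change was 2.75 (adjusted p = 0.015). LOC_Os04g46810, without a description and 82971 bases past EXPB5, shared the high value in mutant replicate 1: it fell from 137 ± 24.9 CPM in the wild type to 35.5, 9.51 and 8.70 CPM in the mutant replicates (adjusted p = 0.00043, edgeR). LOC_Os04g46820 beside it went from 33.3 ± 4.27 CPM to 9.90, 1.66 and 1.35 CPM (adjusted p = 0.0016, edgeR).

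**Figure D4:**
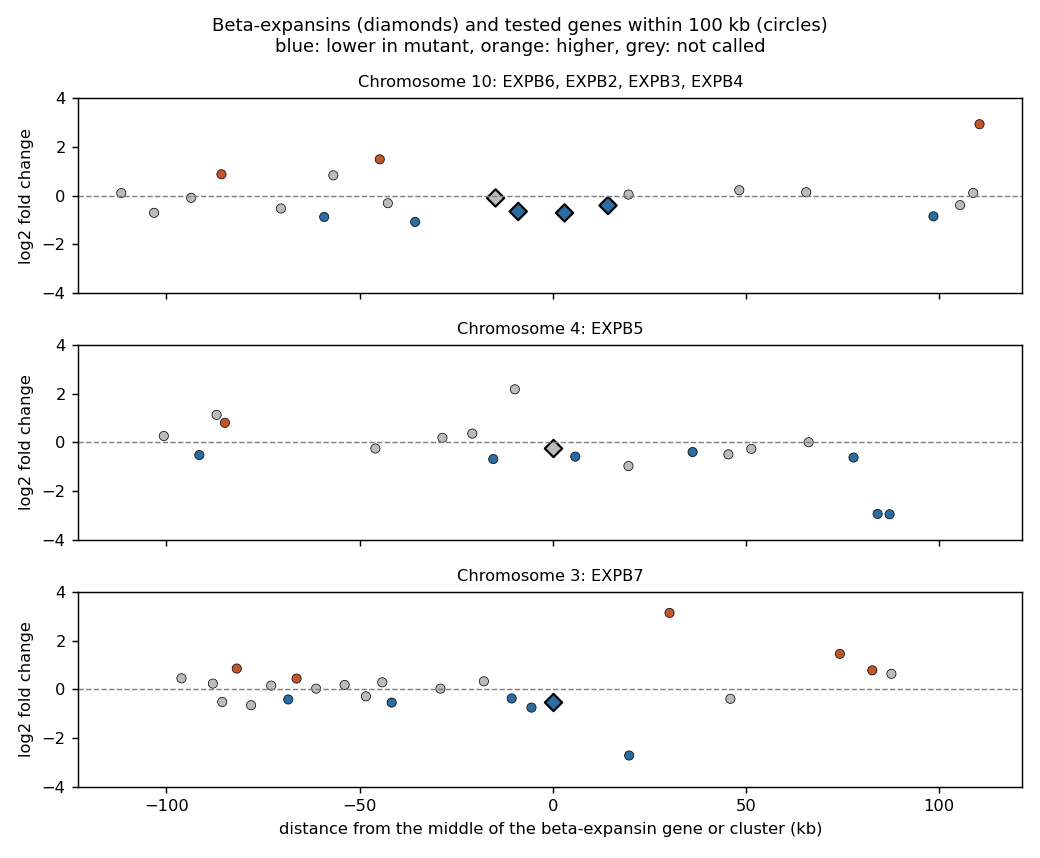
Log2 fold change, mutant minus wild type, of the beta-expansin genes (diamonds) and of tested genes within 100 kb (circles) against the distance in kb from the middle of the gene or group, coloured blue where lower, orange where higher and grey where not called. Around the chromosome 10 group 3 genes are higher and 3 lower, and the gene next to EXPB4 is not called.

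Of the other wall-loosening genes that the descriptions identify, the list of glycoside hydrolase family 16, which includes the enzymes that cut and rejoin xyloglucan, had 32 members, of which 22 were tested. Among these 12 fell, 1 rose and 9 did not pass, against 20.3% lower and 24.9% higher over all tested genes, and the median log2 change was -0.73. Summed over the list, the level was 1755, 1530 and 1601 CPM in the wild type libraries and 1055, 1071 and 1010 CPM in the mutant libraries, and LOC_Os08g13920 alone held 697 ± 83.8 and 399 ± 48.9 CPM of it. LOC_Os11g33270, chosen like LOC_Os08g13920 after its values were seen, was like EXPB2 in that mutant replicate 1 lay inside the wild type range, with 67.8, 74.5 and 69.3 CPM in the wild type libraries and 69.5, 44.8 and 49.4 CPM in mutant replicates 1, 2 and 3. It did not pass the test (adjusted p = 0.071, edgeR). LOC_Os06g22919 had a mean of 13.1 ± 2.66 CPM in the wild type and fell to 2.68 ± 0.343 CPM, or by 2.29 on the log2 scale, and LOC_Os06g48200 had a log2 change of -2.64. The exception, LOC_Os10g42670, rose from 6.00 ± 1.87 to 45.6 ± 13.4 CPM, a log2 change of 2.93 ± 0.26 (adjusted p = 9.59e-06, edgeR). No description in the table names an expansin or a pollen allergen domain (0 genes matched), so the remaining expansins could not be listed from it.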

How the data were processed

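The members and the gene lists were chosen with earlier results of these data known. For the 6 libraries the authors deposited read counts by gene in 1 table, with a gene length in bases. The values are whole numbers with different totals and were taken as counts, although rounded scaled values would look alike. Bowtie 0.12.2 and the mouse builds mm8 and mm9, which cannot have given rice loci, are named in the submitters' processing notes. No source used here gives the counter, the strand setting or the rice build. Every sample column matched 1 sample (0 columns of other samples).

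The analysis used edgeR 4.0.16 under R 4.3.3: expression filter by group, TMM factors (0.924 to 1.04), a quasi-likelihood fit of genotype alone (4 residual degrees of freedom), two-sided tests, Benjamini-Hochberg adjustment over 22624 genes and a threshold of 0.05. Standard errors are the absolute log2 change over the square root of the F statistic. Alternatives were other scalings and filters, DESeq2 1.42.0, limma 3.58.1 voom, a replicate block and leaving out each library. Ratios between members used CPM with 0.01 added. Correlations used log2 CPM with a prior count of 2. In counts simulated for mutant against wild type on 22314 genes, edgeR recovered 61 of 100 genes changed by 1 on the log2 scale and 92 of 100 changed by 2, with 9 false calls.

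Named were all 6 members, expansins by description within 100 kb and elsewhere (0 matched), in the family 16 list up to 2 called genes with the highest and 2 with the lowest log2 change at a mean of at least 5 CPM, and for each member the 2 genes of at least 5 CPM with the highest correlation. The seed storage list matched 0 genes. No sequence is shown.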

Additional observations from a re-analysis of the deposited data

How the results depend on the processing

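No member was called higher under any of the alternatives run. The decrease of EXPB3 was called under all of them. The number of members called lower was 4 as reported and 4 with RLE or upper-quartile factors, without a filter, with DESeq2 and with limma-voom. It was 3 with a filter of 1 CPM in 3 libraries and 1 with library totals. With 1 library left out it ran from 1 to 4 (1 without wild type replicate 3 and 1 without mutant replicate 3). The 4 without mutant replicate 1 included EXPB5 (adjusted p = 0.011, edgeR) and not EXPB7 (0.079). With library totals, which shift the median of all genes by 0.09, the log2 changes that lost their call were -0.55 for EXPB2, -0.31 for EXPB4, -0.44 for EXPB7, -0.33 for LOC_Os05g31750, -0.27 for LOC_Os08g32600 and -0.28 for LOC_Os03g01260, and those that changed sign without a call were 0.0011 for EXPB6, 0.041 for LOC_Os06g42754 and 0.053 for LOC_Os03g51220. With the filter of 1 CPM, EXPB7 lost its call at -0.52. The cause was not tested. With 1 library left out, log2 changes ran from -0.99 to -0.46 for EXPB2, from -0.47 to -0.29 for EXPB4, from -1.92 to 0.24 for EXPB5, from -0.29 to 0.012 for EXPB6, from -0.69 to -0.32 for EXPB7 and from -0.24 to 0.037 for LOC_Os06g42754. Higher genes of the family 16 list numbered 1, or 1 to 2 with a library left out. All genes called numbered 10229, and 7804 to 11191 with 1 library left out; the share of called genes that were higher was 55.2% with limma-voom, 49.3% with upper-quartile factors and 63.1% with library totals. The replicate numbers were not treated as pairs. Deviations of same-numbered libraries correlated at 0.057, 0.13 and -0.032, and not every library correlated best with its own number. With 3 libraries per genotype these values cannot decide whether the libraries were paired. With a replicate block 10648 genes were called, with 4 members lower and 2 family 16 genes higher. The log2 change of EXPB5 was then -0.77, without a call (adjusted p = 0.28, edgeR). Levels per kilobase from TPM, brought to the same total, were 81.4 in the wild type and 56.2 in the mutant for EXPB3, 181 and 154 for EXPB4, and 84.8 and 89.9 for EXPB6. Only the mean of EXPB6 was higher in the mutant on this scale, and the genotypes overlapped. As TPM it measured 123, 117 and 124 in the wild type and 164, 113 and 109 in the mutant, so mutant replicates 2 and 3 lay below every wild type library. The wild type values of EXPB3, EXPB4 and EXPB6 moved by over 1 SD. The overlap of the genotypes under other scalings was examined after seeing the data. Other expansins gave no values under any setting because 0 genes matched.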
